A study of Rattus norvegicus with 10 samples.

Results

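The genes described here encode 8 plasma proteins made by the liver: albumin (Alb), transthyretin (Ttr), afamin (Afm), alpha-fetoprotein (Afp), the vitamin D binding protein (Gc), retinol binding protein 4 (Rbp4), fetuin-A (Ahsg) and the corticosteroid binding globulin (Serpina6). Their members were all probe sets with exactly 1 of these symbols in the probe table of the array, which gave 21 of 8799 probe sets, and 8 of 4737 genes with a symbol. Another probe set, rc_AI102562_at, carried 3 symbols, Ttr among them, and was left out. RNA was measured in rat liver on 10 expression arrays in 5 groups of 2. Burned rats were sampled 1, 4, 8 or 24 h after injury, and sham animals, which the labels place at 0 h, served for all of these times. There were no sham samples at the later times, so effects of the burn and of the time of day cannot be told apart. Strain, age, sex and the extent of the burn are not given in the sources used here, nor is it stated that the arrays within a group are different animals. The p-values therefore rest on array-to-array spread alone, and that may be technical.

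Negative acute phase proteins are plasma proteins whose concentration falls during inflammation, while positive ones such as haptoglobin and orosomucoid climb. Albumin carries fatty acids and keeps up the colloid pressure of plasma, transthyretin carries thyroxine and holds retinol binding protein 4 in the circulation, and the corticosteroid binding globulin holds glucocorticoids in plasma. Afamin, alpha-fetoprotein, albumin and the vitamin D binding protein form 1 gene family. In the RefSeq annotation (GRCr8) Afm, Afp and Alb are direct neighbours among the protein-coding genes. Alpha-fetoprotein is the fetal member, and its gene is known to be silenced in liver after birth.

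The promoters of 6 of the 8 genes were present in the RefSeq table for GRCr8, and those of Afm and Serpina6 were not used here. The 250 bases before the listed start are shown for the family members Alb, Afp and Gc, which share a motif, and for Rbp4, which lacks it. Capitals mark GTTAAT, a half-site known for the hepatocyte factor HNF1, searched on both strands. The windows were chr14:17906980-17907229, minus strand, chr14:17875646-17875895, minus strand, chr14:18916005-18916254, plus strand and chr1:245313552-245313801, minus strand.
Alb: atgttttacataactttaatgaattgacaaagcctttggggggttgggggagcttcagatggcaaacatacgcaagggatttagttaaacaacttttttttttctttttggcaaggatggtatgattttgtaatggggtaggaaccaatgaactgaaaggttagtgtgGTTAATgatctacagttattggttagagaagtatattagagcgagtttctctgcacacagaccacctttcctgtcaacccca
Afp: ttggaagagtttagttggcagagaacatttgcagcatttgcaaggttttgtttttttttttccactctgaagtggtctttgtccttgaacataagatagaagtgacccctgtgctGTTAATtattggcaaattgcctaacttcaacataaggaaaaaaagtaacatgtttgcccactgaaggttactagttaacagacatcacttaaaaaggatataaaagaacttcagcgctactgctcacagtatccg
Gc: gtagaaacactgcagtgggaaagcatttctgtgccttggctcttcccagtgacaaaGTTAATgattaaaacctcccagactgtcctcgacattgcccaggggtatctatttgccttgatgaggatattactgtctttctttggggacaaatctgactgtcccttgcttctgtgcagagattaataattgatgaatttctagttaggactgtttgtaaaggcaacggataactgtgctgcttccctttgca
Rbp4: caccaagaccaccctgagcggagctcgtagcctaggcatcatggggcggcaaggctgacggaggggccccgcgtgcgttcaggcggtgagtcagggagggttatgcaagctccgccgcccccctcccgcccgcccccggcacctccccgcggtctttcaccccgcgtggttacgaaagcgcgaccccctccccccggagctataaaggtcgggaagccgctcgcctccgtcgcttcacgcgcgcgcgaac
GTTAAT was found in 3 of the 6 promoters, 82 bases before the start in Alb, 135 bases before it in Afp and 194 bases before it in Gc, and in 6.5% of 33469 rat promoter windows of 250 bases. A second pattern, TTGCNNAA, a loose form of the C/EBP site, was searched in the same way and was present in Alb, Afp, Rbp4 and Ahsg and in 9.2% of all windows. The 2 motifs did not overlap in these promoters. Distances are counted from the listed start, which for Alb and Ttr lay inside the annotated gene. Part of the Alb window and all of the Ttr window were therefore within the gene. A match describes the letters and is not evidence of binding.

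The values were linear intensities. Values under a floor of 36.4 were raised to it, log2 values were taken, and limma was run on the 5285 probe sets that exceeded the array median at least 2 times in 10 arrays. A probe set was called when its adjusted p (Benjamini-Hochberg) was under 0.05. Of the 21 probe sets 16 passed that filter, with at least 1 for each gene. All 14 hepatocyte markers checked, with Alb, Ahsg and Ttr among them, were tested. Their summed intensities were 372178 and 432248.2 in sham samples, 378674.2 and 423983.8 at 1 h and 328827.1 and 387277.8 at 4 h. They were 435194.5 and 445148.7 at 8 h, above all other arrays, and 369848.9 and 387783.1 at 24 h. Markers of the exocrine pancreas moved with the groups: the summed intensity of 13 enzyme genes was 9782 and 10502.8 in sham samples, 44589.2 and 47081.9 at 1 h, 2288.6 and 2494.4 at 4 h, 13480.3 and 13986.5 at 8 h, and 2175.6 and 2704.4 at 24 h. Of these 13 genes 11 rose at 1 h, 8 fell at 4 h, 4 rose at 8 h and 9 fell at 24 h. Globin and other red cell genes summed to 61742 and 71232.4 at 1 h against 50482.8 and 52682 in sham samples, and to between 39310.2 and 47002.1 at the later times. The 7 Kupffer cell and phagocyte markers on the array summed to 3627.3 and 3659.2 at 24 h, the lowest of all groups, against 4824.8 and 4984.4 in sham samples. The 8 endothelial and stellate markers summed to 3188.3 and 3388.6 at 1 h and to 2083 and 2253.8 at 24 h, against 2342 and 2704.3 in sham samples, and Des was under the floor on every array. The part of these markers in the results below was not tested. In whole liver RNA, fewer cells of a type and less RNA per cell cannot be told apart.

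**Figure D1:**
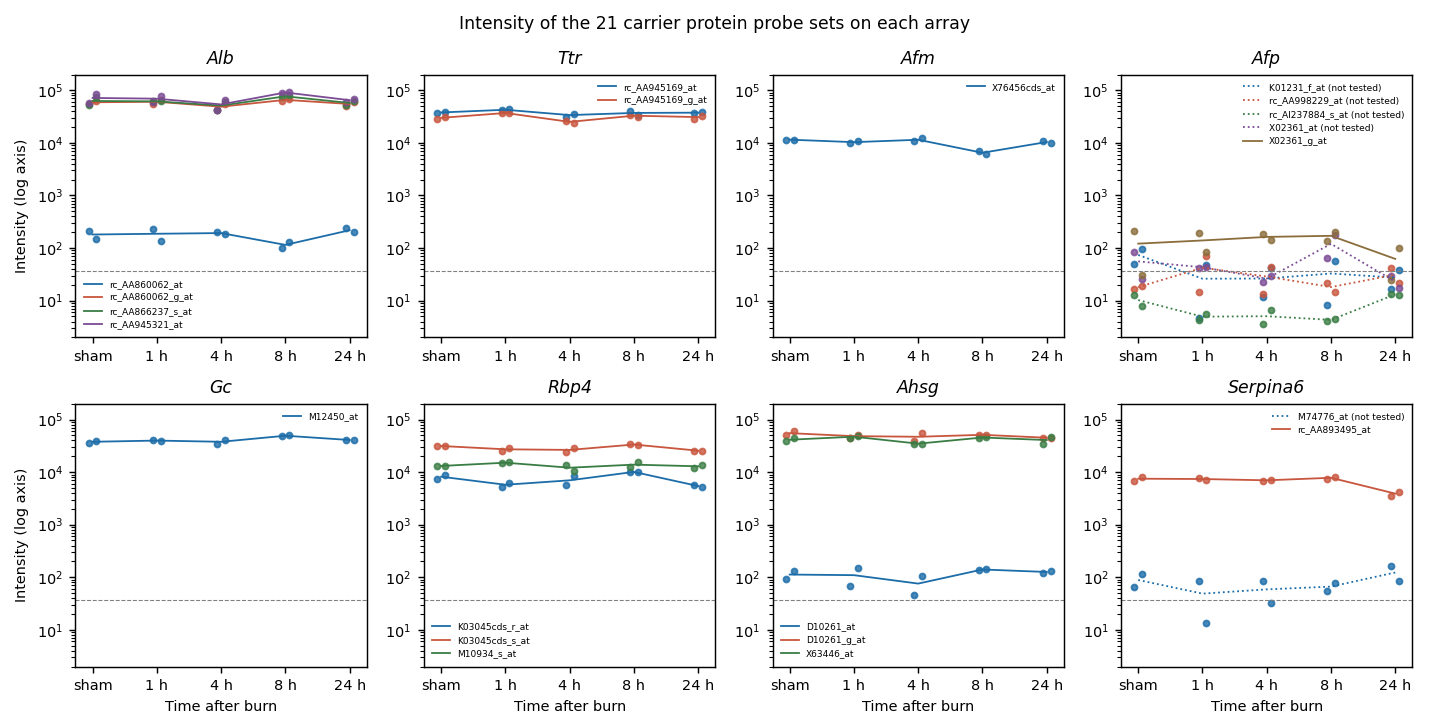
Intensity (log axis) of each of the 21 probe sets on each array, by group; points are arrays, lines join the means of 2 arrays, dotted lines are probe sets that were not tested, and the dashed grey line is the floor of 36.4. Afm dips at 8 h, Serpina6 is lower at 24 h, and the Afp probe sets reach at most 212.

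Afamin mRNA was lower at 8 h and back near the other groups at 24 h. Afamin is a vitamin E binding glycoprotein of the albumin family and had 1 probe set, X76456cds_at. Its intensities were 11502.5 and 11567.1 in sham samples, 9915.4 and 10761.1 at 1 h, 10699.9 and 12272.8 at 4 h, 6953.8 and 6037.9 at 8 h, and 11050.9 and 9751.9 at 24 h. Both 8 h arrays lay below every other array, while the other 4 groups overlapped with their neighbours in the order of the means. At 8 h Afm fell 1.78-fold against sham (log2 change -0.83, SE 0.16, n = 2 and 2, limma adjusted p = 0.0445). It was also the single member called at 8 h against 4 h (log2 change -0.82, SE 0.16, adjusted p = 0.027), and from 8 h it rose 1.6-fold by 24 h (log2 change 0.68, SE 0.16, adjusted p = 0.04). At 24 h against sham the log2 change was -0.15, with a 95% interval of -0.54 to 0.23.

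The size of the 8 h change in Afm was stable and its call was not. Without each array in turn the log2 change against sham lay between -0.93 and -0.73, and the adjusted p between 0.0669 and 0.169. It did not pass with the arrays scaled to a common median (log2 change -0.67, adjusted p = 0.21), with the replicate number as a block (0.0614), with only the groups compared (0.184) or without the 1 h arrays (0.0801). The change from 8 h to 24 h failed without any 1 array (0.0515 to 0.172) and with the block (0.0505), and that from 4 h to 8 h failed without any 1 h, 4 h or 8 h array (0.051 to 0.122). Under quantile normalization Afm was lower still at 8 h against sham, with a log2 change of -0.98.

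The genes whose log2 values followed Afm most closely over the 10 arrays were the carboxylesterase gene Ces1c (Pearson r = 0.965), the microsomal epoxide hydrolase gene Ephx1 (0.959) and the glutathione peroxidase gene Gpx1 (0.952). These values describe 10 arrays that fall into 5 groups and share their scaling. Ces1c had intensities of 4589.6 and 3372.3 at 8 h against 18051.9 and 16648.7 in sham samples. Ephx1 had 10391.4 and 10109.6 at 8 h against 14475.4 and 14843.8 in sham samples, and Gpx1 had 15113.1 and 13382.2 against 21433.8 and 22073.2. In each of the 3 genes the 8 h arrays were the lowest of all 10. Because the genes were chosen by their correlation with Afm over these arrays, this is no separate support.

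Serpina6 was not called up to 8 h and fell at 24 h. The probe set rc_AA893495_at had 6812 and 8178.2 in sham samples, 7564 and 7210.9 at 1 h, 6923.6 and 7035.7 at 4 h, 7547.1 and 8051.8 at 8 h, and 3549.9 and 4246.1 at 24 h. Both 24 h arrays were below all the others, and every other group overlapped with sham. The fall at 24 h was 1.92-fold against sham (log2 change -0.94, SE 0.17, n = 2 and 2, limma adjusted p = 0.0155) and 2.01-fold against 8 h (log2 change -1.01, SE 0.17, adjusted p = 0.0117). At 1, 4 and 8 h the log2 changes against sham were -0.02, -0.10 and 0.06, and the 95% interval at 8 h ran from -0.34 to 0.46. The 24 h change against sham did not pass without sham array 2 (log2 change -0.81, adjusted p = 0.0848), without 24 h array 1 (-0.81, 0.085) or with only the groups compared (0.0836), and the change against 8 h did not pass without 8 h array 2 (0.0602), without 24 h array 1 (0.069) or with only the groups compared (0.0588). It passed under the other 17 of 20 settings in both comparisons. The second probe set of the symbol, M74776_at, ran from 13.5 to 161.2, was above the array median on 1 array and was not tested. The probe table gave it a gene number other than that of rat Serpina6.

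Across the 10 arrays the gene most like Serpina6 was Cebpa (r = 0.957), which encodes the hepatocyte transcription factor C/EBP alpha, followed by Lim2, known as a lens membrane protein gene (0.955), and Rnase4, a secreted ribonuclease gene (0.951). Cebpa had intensities of 213.5 and 193.8 at 24 h against 739.2 and 849.4 in sham samples. Its fall was 3.9-fold (log2 change -1.96, SE 0.16, limma adjusted p = 0.000772) and passed under all 20 settings. Rnase4 had 1890.5 and 2356.7 at 24 h against 8352.6 and 9131 in sham samples, and Lim2, a dim probe set, had 117.9 and 106.1 against 197.1 and 232.6. At 4 h Rnase4 had 5126.3 and 5089.5, below both its sham arrays.

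Rbp4 carries retinol from the liver and had 3 probe sets, all tested, which did not give the same picture. K03045cds_r_at had intensities of 7390.8 and 8963.6 in sham samples, 5214.1 and 6277 at 1 h, 5669.8 and 8286.6 at 4 h, 10011.5 and 10156 at 8 h, and 5711.7 and 5146.1 at 24 h. It was highest at 8 h, where both arrays were above all others. From 8 h to 24 h it fell 1.86-fold (log2 change -0.90, SE 0.23, limma adjusted p = 0.0463). K03045cds_s_at, of the same transcript, had 33878.5 and 33089.6 at 8 h and 25652.1 and 25461.6 at 24 h. Its log2 change from 8 h to 24 h was -0.39 (SE 0.15, adjusted p = 0.154), and this was called with the intensity trend and robust variance (0.024). M10934_s_at had 12285.7 and 15465.2 at 8 h and 12133.9 and 13663.9 at 24 h, which overlapped. At 24 h against sham the log2 changes of the 3 probe sets were -0.59 (adjusted p = 0.157), -0.30 (0.29) and -0.02 (0.966). The r in the name marks a probe set for which design rules were relaxed. Its call between 24 h and 8 h was lost on leaving out any one of the sham, 1 h, 8 h or 24 h arrays (adjusted p of 0.0611 to 0.184), with no filter (0.0627), with only the groups compared (0.0589) and without the 1 h arrays (0.0648).

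**Figure D2:**
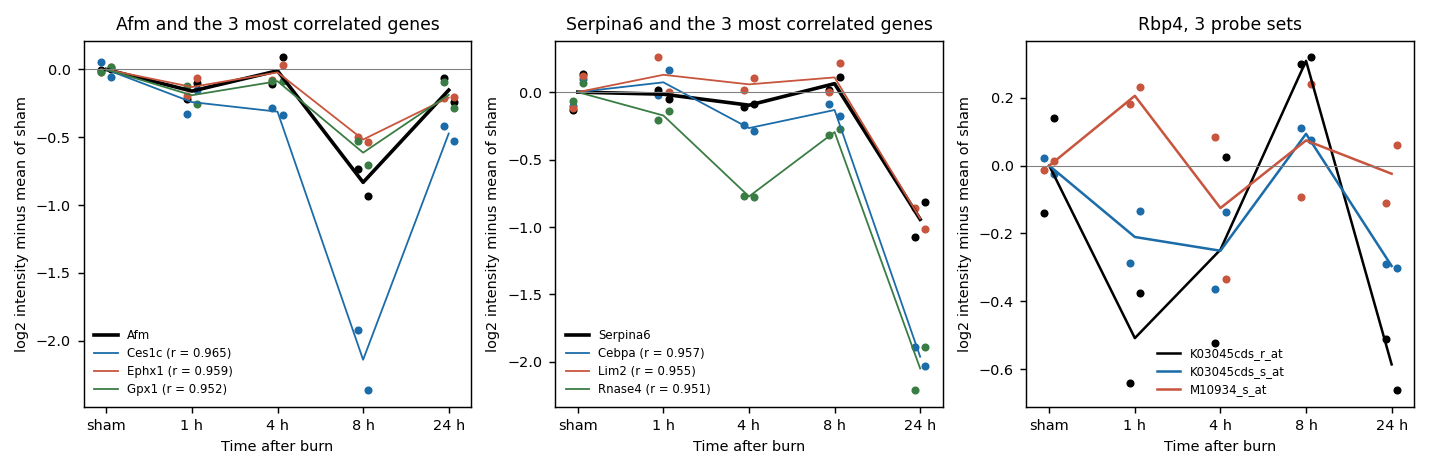
log2 intensity (floored at 36.4) minus the mean of the sham arrays, for Afm and Serpina6 with the 3 genes of highest Pearson correlation over 10 arrays, and for the 3 probe sets of Rbp4; points are arrays and lines join group means. Afm and its 3 genes are lowest at 8 h, Serpina6 and its 3 genes are lowest at 24 h, and the Rbp4 probe sets part from each other at 1 h and 24 h.

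Albumin was not called in any comparison in the limma fit as described, but rc_AA945321_at was called at 8 h against 4 h with an intensity trend and robust variance (log2 change 0.79, adjusted p = 0.0436). Its probe set rc_AA945321_at had intensities of 58002.4 and 85464.4 in sham samples, 59539.4 and 79327.1 at 1 h, 42718.7 and 65287.3 at 4 h, 87926.3 and 94416.8 at 8 h, and 60440.8 and 69635.6 at 24 h. For this probe set only the 8 h arrays lay apart from the sham arrays. At 24 h against sham the log2 change was -0.12 with a 95% interval of -0.79 to 0.56. The probe sets rc_AA866237_s_at and rc_AA860062_g_at had log2 changes at 24 h of -0.11 each (adjusted p = 0.831 and 0.802). At 8 h the 3 bright probe sets had log2 changes against sham of 0.37, 0.32 and 0.15 (adjusted p = 0.54, 0.534 and 0.739). After quantile normalization the same changes were 0.08, 0.04 and -0.14, and with arrays scaled to a common median 0.53, 0.48 and 0.32. Quantile normalization sets a value by its rank, and these 3 probe sets ranked at percentile 99.9 or above on every array. It leaves them little room to change and cannot decide whether they rose. The dim rc_AA860062_at, between 101.3 and 236.7 on all arrays, ran the other way at 8 h, with 101.3 and 128.3 against 210.1 and 151.6 in sham samples (log2 change -0.65, adjusted p = 0.295).

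Alpha-fetoprotein was dim in every group. Of its 5 probe sets 4 were not tested, with values from 3.6 to 176.4, and rc_AI237884_s_at was below the floor on all 10 arrays. The tested probe set, X02361_g_at, had 212 and 30.6 in sham samples, 194.9 and 84 at 1 h, 184.3 and 141.6 at 4 h, 136.9 and 204.8 at 8 h, and 25 and 99.4 at 24 h. Its SE was 0.87, the widest among the tested members, and its smallest adjusted p against sham was 0.62. The pair of sham arrays alone spanned nearly its whole range.

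The vitamin D binding protein gene Gc was not called in any comparison in that fit. M12450_at had 36538.9 and 38959.9 in sham samples, 41173.5 and 38439.3 at 1 h, 33858.9 and 41614.8 at 4 h, 48164.6 and 50260 at 8 h, and 41133.1 and 40533.6 at 24 h. Both 8 h arrays were above all others, with a log2 change of 0.38 against sham (SE 0.16, limma adjusted p = 0.263) and 0.39 against 4 h (adjusted p = 0.202, and 0.0367 with the intensity trend and robust variance). After quantile normalization the same changes were 0.04 and -0.13, and with arrays scaled to a common median 0.545 and 0.52. This probe set ranked at percentile 99.6 or above on every array, which limits what a normalization by rank can show for it.

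Transthyretin had its highest group mean at 1 h and its lowest at 4 h on both probe sets, and neither was called in that fit. rc_AA945169_g_at had 28754.2 and 31247.2 in sham samples, 37057.2 and 37137.4 at 1 h, 26436.9 and 23847.5 at 4 h, 34290.9 and 31600.5 at 8 h, and 29068.6 and 32929.1 at 24 h. The 1 h arrays were above all others and the 4 h arrays below all others. At 4 h against 1 h the log2 change was -0.56 (SE 0.15, limma adjusted p = 0.0962), and this was called with the floor at the 50th percentile (0.0413), with no filter (0.0321) and with an intensity trend and robust variance (0.00653), which also called its change at 8 h against 4 h (log2 change 0.39, adjusted p = 0.0292). After quantile normalization its changes at 4 h against 1 h and at 8 h against 4 h were -0.32 and 0.03. With arrays scaled to a common median they were -0.49 and 0.52. This probe set ranked at percentile 99.4 or above on every array, which limits what a normalization by rank can show. The companion rc_AA945169_at had 41901.3 and 43564.5 at 1 h and 31431.9 and 36248.2 at 4 h. At 24 h against sham the 2 probe sets had log2 changes of 0.05 (95% interval -0.32 to 0.41) and -0.01 (-0.38 to 0.35).

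Fetuin-A, an inhibitor of calcium phosphate precipitation in plasma, was not called at any time on its 3 tested probe sets. D10261_g_at had 49831.4 and 60363 in sham samples, 44880.2 and 51782.5 at 1 h, 38939.9 and 55120.8 at 4 h, 50664.5 and 51812.5 at 8 h, and 45335.5 and 44760.4 at 24 h. The 24 h arrays did not overlap with sham (log2 change -0.28, SE 0.21, adjusted p = 0.468). X63446_at, also of Ahsg, had 34216.5 and 47170.1 at 24 h against 38542.2 and 44088.1 in sham samples, which overlapped (log2 change -0.04, adjusted p = 0.939). The dim D10261_at stayed between 46.2 and 149.9.

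Counted over the 16 tested probe sets, limma called 0 at 1 h (0.795% of all 5285 were called higher and 0.643% lower) and 0 at 4 h (2.37% higher and 1.99% lower). At 8 h it called 0 higher and 1 lower (1.55% higher and 1.95% lower), and at 24 h 0 higher and 1 lower (3.94% higher and 6.34% lower), so that the share at 24 h is close to that of the whole array. At an unadjusted p under 0.05 the 16 probe sets gave 0 at 1 h and at 4 h, beside 12% and 17.4% of all tested. The later times gave 2 each, beside 18.6% of all at 8 h and 25.6% at 24 h. The burn arrays lay wholly above sham for 4 and wholly below for 3 of the 16 at 1 h (21.7% and 20.9% of all). At 4 h these counts were 0 and 4 (20.1% and 25.8%), at 8 h 7 and 2 (18.5% and 29.6%), and at 24 h 1 and 5 (24.6% and 29.2%). The median log2 change of the 16 was 0.01, -0.24, 0.14 and -0.11 at 1, 4, 8 and 24 h, beside 0.02, -0.04, -0.1 and -0.04 over all tested probe sets. After quantile normalization the members' median was -0.07 at 4 h, -0.03 at 8 h and -0.09 at 24 h. With arrays scaled to a common median it was -0.21, 0.30 and -0.06 at these times, so the 2 scalings moved the 8 h value in opposite directions. Single arrays also moved it. Leaving out 4 h array 1 gave -0.07 at 4 h, and leaving out sham array 2 gave -0.13. At 24 h, leaving out either sham array 2 or 24 h array 1 turned it to 0.01, and dropping 24 h array 2 gave -0.21. At 8 h, dropping sham array 1 gave 0.07 and dropping 8 h array 1 gave 0.21. At 1 h, dropping sham array 1 gave -0.10 and dropping sham array 2 gave 0.12. The F test over the 4 burn times called 2 of the 16, Afm and Serpina6 (adjusted p = 0.0465 and 0.0258), and 15.3% of all tested probe sets. It called 1 member without either sham array and 0 without any one of the burn arrays.

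**Figure D3:**
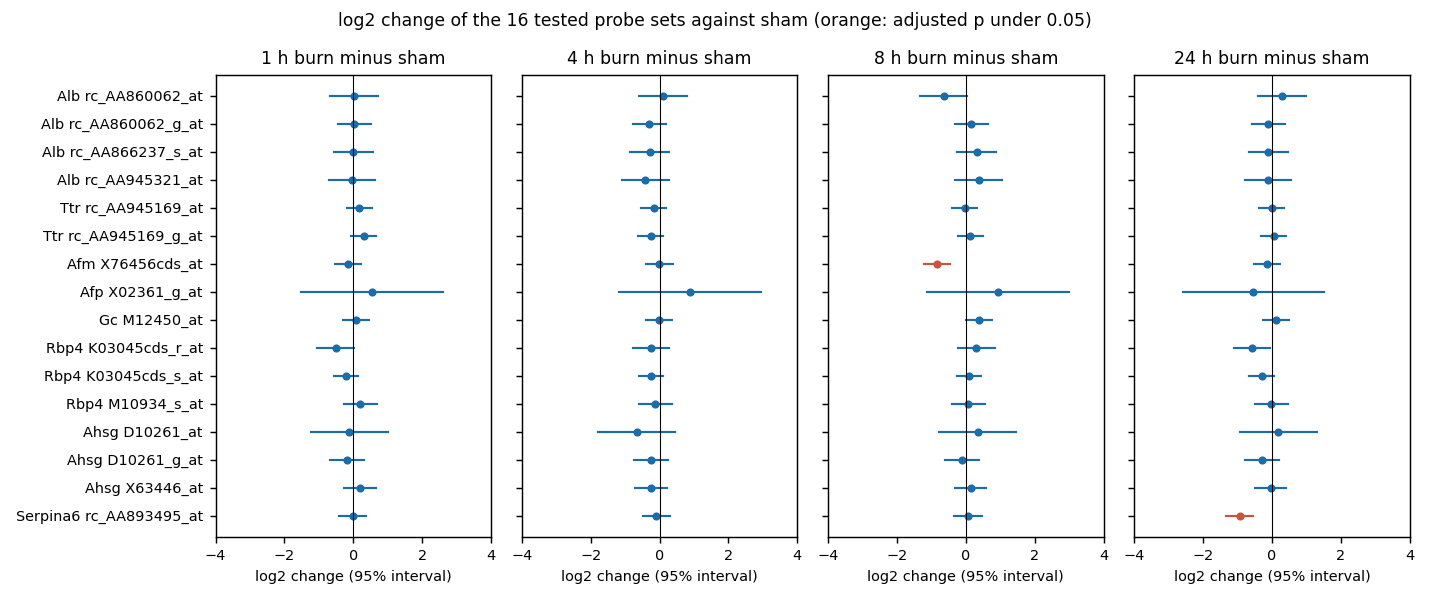
log2 change against sham of the 16 tested probe sets at 1, 4, 8 and 24 h with the 95% interval of the limma fit; orange marks an adjusted p under 0.05. The orange points are Afm at 8 h (-0.83) and Serpina6 at 24 h (-0.94), and the interval of Afp is the widest in each panel.

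Neighbouring burn times were compared directly as well. At 4 h against 1 h limma called 0 of the 16 (2.46% of all higher and 2.54% lower), and 1 had an unadjusted p under 0.05 (18.5% of all). The 4 h arrays lay wholly above the 1 h arrays for 0 and wholly below for 6 (22.4% and 27.9% of all). At 8 h against 4 h limma called 0 higher and 1 lower, Afm (3.48% higher and 4.81% lower), and 7 had an unadjusted p under 0.05 (23.3% of all). There the 8 h arrays lay above for 10 and below for 2 (22.3% and 28.6% of all), and the median log2 change of the 16 was 0.37. The 10 included 3 Alb probe sets, Gc and 2 of Rbp4. This lean depended on the scaling: the median was 0.002 after quantile normalization and 0.50 with arrays scaled to a common median. The 3 Alb probe sets had log2 changes of 0.15, 0.01 and -0.07 after quantile normalization, where the deposited values gave 0.79, 0.60 and 0.45. Quantile normalization sets a value by its rank, and these 3 ranked at percentile 99.9 or above on every array. It leaves them little room to change and cannot decide whether they rose. At 24 h against 8 h limma called Afm higher, and Rbp4 K03045cds_r_at and Serpina6 lower, so 1 and 2 of the 16 (5.81% of all higher and 5.94% lower), and 5 had an unadjusted p under 0.05 (27.5% of all). In that step the 24 h arrays lay above for 2 and below for 10 (30.8% and 24.9% of all). The median was -0.22 as deposited, -0.06 after quantile normalization and -0.34 with arrays scaled to a common median. Afm, Serpina6 and Rbp4 K03045cds_r_at kept their directions in that step with deposited, quantile and common-median scaling.

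Other plasma carriers and proteins known to fall in inflammation gave 4 lower calls at 24 h. Against sham, for 13 tested genes from a list of 26, limma called 0 at 1 h, 1 lower at 4 h, 1 lower and 1 higher at 8 h, and 4 lower at 24 h. The median log2 changes were -0.002, -0.36, -0.23 and -0.25. Mug1, a murinoglobulin gene of the alpha-macroglobulin family whose probes may also bind transcripts of close paralogs, had 5938.2 and 5490.1 at 4 h, 4130.6 and 3903.5 at 8 h and 5260.4 and 5004.1 at 24 h, against 8790.2 and 9991.1 in sham samples. It fell 1.64-fold, 2.33-fold and 1.83-fold at those times (limma adjusted p = 0.0448, 0.0109 and 0.0139). Serpina7, the thyroxine binding globulin gene, had 72.2 and 77.7 at 24 h against 224.5 and 237.2 in sham samples, and fell 3.08-fold (adjusted p = 0.0225). Its arrays were below both sham arrays at the earlier times too, without a call, with 90.1 and 90.7 at 1 h (2.55-fold lower, adjusted p = 0.137). At 24 h the growth factor gene Igf1 fell 1.66-fold (adjusted p = 0.0366) and Igfals, its acid-labile binding subunit, 2.01-fold (adjusted p = 0.0145). Igfals arrays were below both sham arrays at every burn time, and 1.78-fold lower at 8 h (adjusted p = 0.0545). Hpx, hemopexin, the heme carrier and a positive acute phase protein, had 63266.2 and 69556.7 at 8 h against 30694 and 36538.2 in sham samples, and rose 1.98-fold (adjusted p = 0.0364). Each of these calls was lost in 4 to 14 of 20 settings, leaving out sham array 2 among them in every case, with adjusted p up to 0.197.

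Among binding partners and intracellular carriers, 12 of 20 listed genes were tested. Limma called 0 at 1 h, 1 higher at 4 h, 1 higher and 1 lower at 8 h and 1 higher at 24 h. Fabp5, a fatty acid binding protein gene, accounted for the increases, at 3.24-fold, 3.49-fold and 2.53-fold (adjusted p = 0.00198, 0.0047 and 0.0048). Its calls at 8 h and 24 h did not pass with only the groups compared (adjusted p = 0.0905 and 0.0516). The thyroid hormone receptor gene Thra fell 2.33-fold at 8 h (adjusted p = 0.0446), a call lost in 15 of 20 settings with adjusted p up to 0.184.

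Liver transcription factors known at the promoters of these genes were called at 4 h and later. Of 14 tested genes, 1 rose and 3 fell at 4 h, 1 fell at 8 h, and 1 rose and 5 fell at 24 h, with 0 called at 1 h. Foxa2 had 544.9 and 434 in sham samples and 209.5 and 230 at 1 h, 2.2-fold lower but not called (limma adjusted p = 0.0522). It had 83.5 and 94.3 at 4 h, 381.9 and 418.7 at 8 h and 121.7 and 161.7 at 24 h. Foxa2 was called 5.48-fold lower at 4 h and 3.47-fold lower at 24 h. Its relative Foxa3 had 1203.1 and 1069.6 at 24 h against 335.5 and 337 in sham samples, a 3.37-fold increase (adjusted p = 0.0054). Onecut1, HNF6, fell 2.92-fold at 4 h and 2.15-fold at 24 h (adjusted p = 0.0137 and 0.0283). At 1 h Onecut1 was 1.93-fold higher than in sham samples and not called (adjusted p = 0.157). Cebpb, the inflammatory C/EBP member, rose 2.03-fold at 4 h and fell 1.62-fold at 24 h (adjusted p = 0.0191 and 0.0472). It was 1.75-fold higher at 1 h, without a call (adjusted p = 0.0906). The nuclear receptor gene Nr5a2 fell 2.42-fold at 24 h (adjusted p = 0.0325). The clock output gene Dbp, first known as a factor of the albumin promoter, had 31.2 and 16.1 at 4 h, both under the floor, against 1007.7 and 1463 in sham samples, and was at least 33.4-fold lower. At 8 h Dbp was 3.97-fold lower (adjusted p = 0.0185). It was 2.17-fold lower at 1 h, without a call (adjusted p = 0.157). Calls of Onecut1, Cebpb, Nr5a2 and of Dbp at 8 h ended without sham array 2 and under 2 to 14 further settings, with adjusted p up to 0.197, while those of Foxa2, Foxa3 and Cebpa held in all 20.

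Positive acute phase genes were called mostly at 8 h and 24 h. Of 24 tested genes 0 were called at 1 h, 2 rose at 4 h, 10 rose at 8 h, and 8 rose and 1 fell at 24 h, with median log2 changes of 0.12, 0.09, 0.77 and 0.37. Orm1, orosomucoid, had 40688.8 and 44441.9 at 8 h and 11753 and 13123.7 at 24 h, against 4810.8 and 5861.2 in sham samples. A2m, alpha-2-macroglobulin, had 14747.3 and 14465 at 24 h against 323.7 and 969.5 in sham samples. The gene that fell was Mbl2, a mannose-binding lectin (2.86-fold at 24 h, adjusted p = 0.0085, and up to 0.0542 without sham array 2 or 24 h array 2). Lcn2, Kng2, Serpina3n, C4bpa, Cp, Lbp and Serping1 were among those that rose at 8 h, and of these Cp, Serpina3n and Serping1 lost the call without sham array 2 (adjusted p up to 0.19 over the 20 settings). With only the groups compared, 0 of all tested probe sets were called higher at 8 h. Orm1, Lcn2, Kng2, C4bpa and Lbp then had a limma adjusted p of 0.0905. Whether these lists differed from the 8 carrier genes was not tested.

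**Figure D4:**
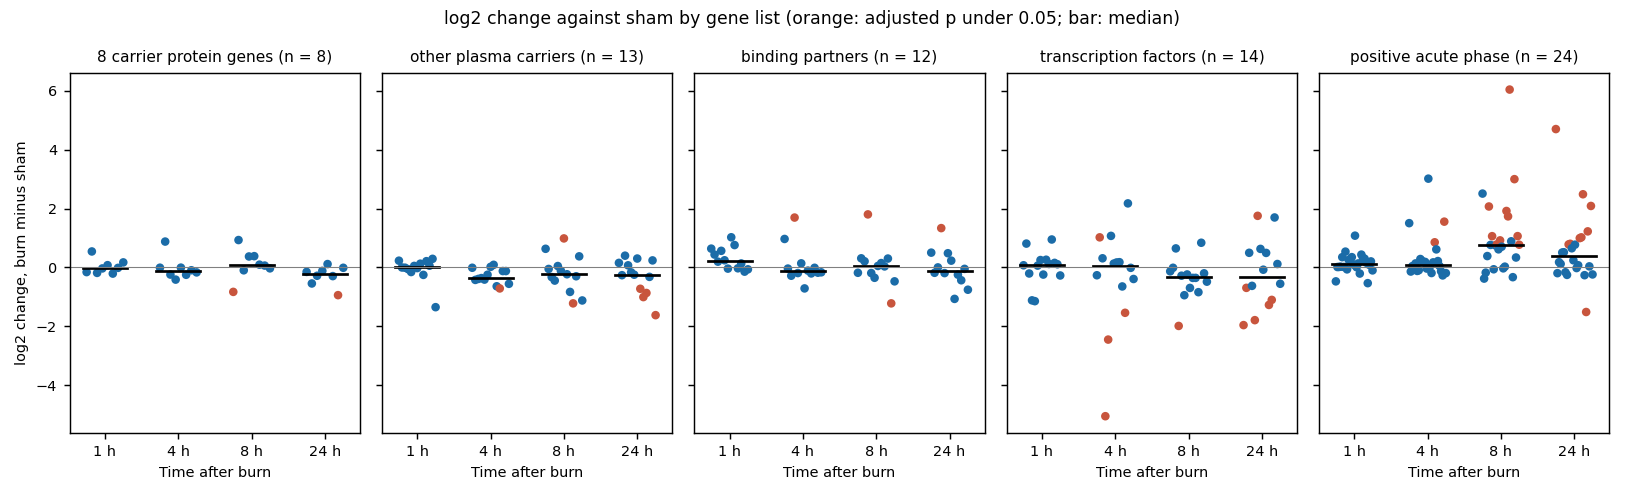
log2 change against sham by time for the 8 carrier protein genes and 4 further gene lists, with 1 probe set per gene (that of highest mean); points are genes, orange marks an adjusted p under 0.05 and bars are medians. The carrier genes lie within 1 log2 unit of sham at all times, while positive acute phase genes reach 6.05 at 8 h. That value is of Lcn2, which had 1 sham array under the floor, so it depends on the floor.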

How the data were processed

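Intensity values of 10 rat liver arrays, 2 per group, were used as the authors deposited them, in 1 table of 8799 probe sets, with array software not given in the sources used here. Deposited intensity values were on a linear scale, and trimming 2% of values from both ends left array means of 500.9 to 501. The floor of 36.4 was the median over arrays of the 25th percentile, applied before log2. The 5 groups were fitted in 1 model (limma 3.58.1, R 4.3.3, 5 residual degrees of freedom, two-sided moderated statistics, Benjamini-Hochberg over 5285 probe sets). Fold changes are ratios of geometric means after the floor. Of the probe sets, 7018 had 1 symbol in the probe table, 308 had more than 1, and 1473 had no entry and were left unnamed. The number of arrays limits the precision.

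The members and gene lists were chosen with earlier results of these data known, and lists other than the members were written by hand for this work. Named genes outside the members were up to 10 called genes per list, ranked by F test p, and the 3 genes most correlated with each member called by that test. In lists, the probe set of highest mean stood for its gene. The fit was tested on simulated data with known changes. Alternatives were quantile normalization, arrays scaled to a common median, leaving out each array, testing without a filter, floors at other percentiles (10th, 50th), robust variance with an intensity trend, fitting only the groups compared, and a block for the replicate number. Fits without the 1 h arrays and without the pancreatic enzyme genes were added after seeing the data.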

Additional observations from a re-analysis of the deposited data

Results flagged for a closer look

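A difference between neighbouring burn times was called for 3 members, each by the contrast of the 2 times in the limma fit. Without sham samples at these times it cannot be credited to the burn. Afm changed by -0.82 on the log2 scale at 8 h against 4 h and by 0.68 at 24 h against 8 h. Rbp4 K03045cds_r_at changed by -0.90 at 24 h against 8 h, while the other Rbp4 probe sets were not called in that fit. Serpina6 changed by -1.01 at 24 h against 8 h. Groups of 2 arrays are too small to look for single outlying arrays.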

How the results depend on the processing

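None of the called changes of a member turned direction under the 20 alternatives. Of the calls of Serpina6 17 of 20 held in each comparison, and of those of Afm 6 held at 8 h against sham, 12 at 8 h against 4 h and 6 at 24 h against 8 h. Rbp4 K03045cds_r_at held in 9. The number of members called at 8 h against sham was 1, and 0 with arrays scaled to a common median, with the replicate block, with only the groups compared and without the 1 h arrays. At 24 h it was 1, but 2 with an intensity trend, which added Rbp4 K03045cds_r_at (adjusted p = 0.0475), and 0 with only the groups compared. At 4 h against 1 h it was 0, but 1 with the floor at the 50th percentile, with no filter or with the trend. At 8 h against 4 h it was 1, but 0 with common medians and with only the groups compared, and 5 with the trend, where Alb rc_AA945321_at, Ttr rc_AA945169_g_at, Gc and Rbp4 K03045cds_s_at were added. At 24 h against 8 h it was 3, but 1 without the 1 h arrays and 0 with only the groups compared. In that step the call of Afm was also lost with common medians (limma adjusted p = 0.171), and that of Rbp4 K03045cds_r_at with no filter (0.0627). The trend added Rbp4 K03045cds_s_at there (0.024). The F test called 2, but 0 with common medians, 5 with the trend and 1 with the replicate block. With 1 array left out the counts were 0 to 0 at 1 h, 0 to 0 at 4 h, 0 to 0 at 8 h and 0 to 1 at 24 h against sham, 0 to 0, 0 to 1 and 0 to 2 for the 3 steps, and 0 to 1 for the F test. The cause was not tested. The replicate block also ended the call of Afm at 24 h against 8 h (adjusted p = 0.0505). Beyond this, the 8 h call against sham and 1 F test call, it ended no other member call. The labels do not say what a replicate number marks. Deviations of same-numbered arrays correlated positively in all 10 pairs of groups (0.011 to 0.17) and above 0.1 in 5, and the numbers were not taken as pairs because not every value passed 0.1. Array 2 was above array 1 in all 5 groups for 3 of the 4 Alb probe sets.

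Counts over all tested probe sets depended on the setting as well, from 1 to 140 at 1 h (76 as reported), 110 to 380 at 4 h (230), 1 to 377 at 8 h (185) and 197 to 830 at 24 h (543) against sham, lowest with only the groups compared and highest with the trend. They ran from 99 to 428 (264), 163 to 683 (438) and 257 to 866 (621) for the 3 steps and from 448 to 1261 (811) for the F test. Scaling to a common median moved the median log2 change of all tested probe sets at 8 h to 0.057, against -0.1 as deposited, and the calls there to 65 higher and 33 lower, against 82 and 103. At 8 h against 4 h it gave 168 and 135, against 184 and 254, and at 24 h against 8 h 164 and 300, against 307 and 314.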
